A study of Mus musculus with 3 samples.

Results

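The mutant wells of a single-cone data set were divided by how many cone genes were counted in them. A well of the Cnga3-/- or the Pde6ccpfl1 plate was called cone-marker-rich when at least 3 of 12 cone markers had a count, and cone-marker-poor when fewer did, among wells with 500 or more genes counted and no more than 30% mitochondrial counts. The 12 markers were Arr3, Opn1sw, Opn1mw, Gnat2, Gnb3, Gngt2, Pde6c, Pde6h, Cngb3, Cnga3, Kcne2 and Ccdc136. Of 208 wells in the table of all 3 plates, 147 were mutant wells and 131 of these were kept, 57 of them rich and 74 poor. The Cnga3-/- plate held 28 rich and 42 poor wells, and the Pde6ccpfl1 plate 29 rich and 32 poor wells. In the wildtype plate, 2 of 52 kept wells reached the same number of markers.

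The cells were GFP-positive cones sorted from retinas labelled postnatal day 12, 1 plate and 1 library per mouse line, and raw counts per gene and well were deposited. Both mutant libraries carry GFP in their names and the wildtype library is named Chrnb4-GFP, and all groups were sorted on GFP; what drives it in the mutant lines is not given in the sources used here. Cnga3 encodes a subunit of the cone cyclic nucleotide-gated channel, which the Cnga3-/- line lacks, and the Pde6ccpfl1 line carries the cpfl1 allele of the cone phosphodiesterase. Nothing in the labels says how many animals a plate holds, and the well names carry tags (P08, P10) whose meaning is not stated. Genotype, plate and tag cannot be told apart, so the 2 plates are treated as a pair of places in which to look for the same difference, not as replicates of a genotype.

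Cones are the photoreceptors of daylight and colour vision. Light activates an opsin, the cone transducin passes the signal to phosphodiesterase 6, cyclic GMP falls, and the cyclic nucleotide-gated channel in the outer segment closes, after which arrestin ends the opsin's activity. Genes of this cascade are among the most strongly expressed of mature cones, and loss of the channel or of the phosphodiesterase leaves cones without light responses and leads to their degeneration.

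Depth differed between the classes before matching. The kept rich wells of the Cnga3-/- plate held 1148 to 16935 counts with a median of 4491, and the poor wells 1134 to 11055 with a median of 3926. In the Pde6ccpfl1 plate the medians were 5545 for rich wells and 3228 for poor wells. Rich and poor wells were therefore paired 1 to 1 on total counts within each plate, which kept 26 pairs in the Cnga3-/- plate and 22 pairs in the Pde6ccpfl1 plate. The paired wells summed to 127088 counts in rich and 122433 in poor wells of the Cnga3-/- plate, and to 104045 and 104551 in the Pde6ccpfl1 plate. After each well was thinned to 1400 counts, the median number of genes was 700 in rich and 662 in poor wells of the Cnga3-/- plate, and 696 and 681 in the Pde6ccpfl1 plate. The ranges of the classes overlapped in both plates.

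**Figure D1:**
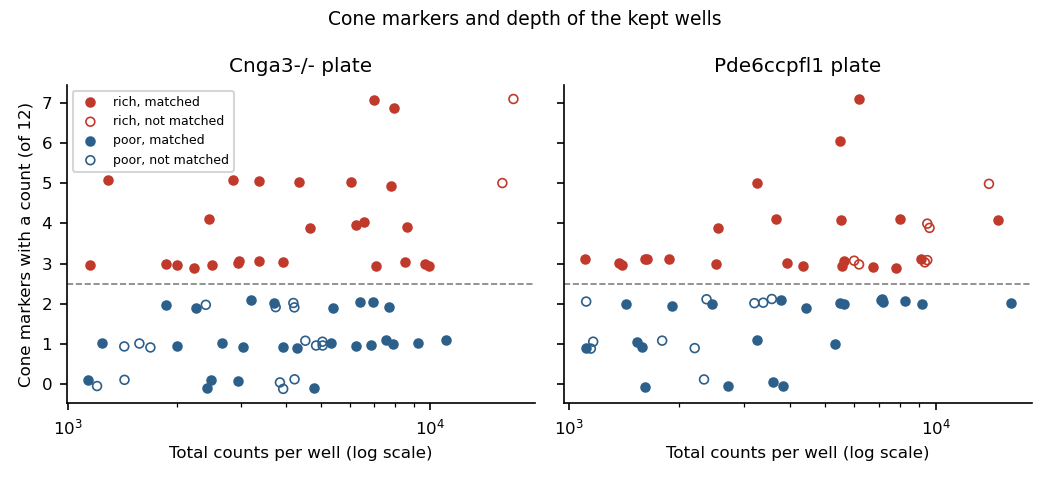
Number of the 12 cone markers with a count (vertical axis, points shifted slightly so that they can be told apart) against total counts per well (horizontal axis, log scale) for the kept wells of the 2 mutant plates. Filled points are wells paired on depth and open points are unpaired wells; the dashed line divides rich from poor wells, and rich and poor wells occur over the same range of depth.

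The counts of the 12 markers chose the classes and are given as a description. They were low throughout. The 12 markers held 202 counts in the 28 rich wells and 57 counts in the 42 poor wells of the Cnga3-/- plate, and 162 and 56 counts in the Pde6ccpfl1 plate. Scaled by exon length, the level was 32.0 CPM (counts scaled to a common library total) per kilobase in rich and 8.20 in poor wells of the Cnga3-/- plate, and 24.3 and 11.2 in the Pde6ccpfl1 plate. Olfactory receptors, which cones are not known to use, stood at 3.66 in rich and 3.54 in poor wells of the Cnga3-/- plate and at 3.77 and 4.63 in the Pde6ccpfl1 plate on the same scale. The poor wells thus had more cone marker counts per kilobase than olfactory receptor counts in both plates. This was not particular to cone markers. A set of 12 rod markers stood at 15.8 in the poor wells of the Cnga3-/- plate and at 13.7 in those of the Pde6ccpfl1 plate, above the cone markers.

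Opn1sw, the short-wavelength opsin, was counted in 24 of 28 rich wells of the Cnga3-/- plate (51 counts) and in 10 of 42 poor wells (12 counts). In the Pde6ccpfl1 plate it was counted in 13 of 29 rich wells (18 counts) and 7 of 32 poor wells (9 counts). The medium-wavelength opsin gene Opn1mw had 11 and 6 counts in the Cnga3-/- plate and 14 and 7 in the Pde6ccpfl1 plate, rich before poor. Both opsins were counted in more rich than poor wells, and neither was absent from the poor wells.

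The cone transducin subunits Gnat2, Gnb3 and Gngt2 couple opsin to the phosphodiesterase. Gnb3 was counted in 17 of 28 rich and 2 of 42 poor wells of the Cnga3-/- plate and in 12 of 29 and 2 of 32 wells of the Pde6ccpfl1 plate. Gnat2 had 19 counts in rich wells and 1 in poor wells of the Cnga3-/- plate, and 17 and 3 in the Pde6ccpfl1 plate. Gngt2 had 16 and 6 counts in the Cnga3-/- plate and 31 and 12 in the Pde6ccpfl1 plate. Pde6h, the inhibitory subunit of the cone phosphodiesterase, had 37 counts in rich and 19 in poor wells of the Cnga3-/- plate, and 32 and 11 in the Pde6ccpfl1 plate.

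Arr3, the cone arrestin, had 5 counts in rich and 0 in poor wells of the Cnga3-/- plate, and 19 and 8 in the Pde6ccpfl1 plate. The count of 0 in 42 poor wells allows up to 17.1 CPM. The channel subunit Cnga3 was counted in 2 of 28 rich wells (7 counts, 6 of them in 1 well) and 6 of 42 poor wells (6 counts) of the Cnga3-/- plate, and Pde6c in 2 of 29 rich and 0 of 32 poor wells of the Pde6ccpfl1 plate. Counts per gene do not show which exons the reads covered, so they do not check the mutant alleles. At the edge of the rule, 12 wells of the Cnga3-/- plate had counts in 2 markers (2 to 7 marker counts) and 13 had counts in 3 markers (3 to 10 marker counts). In the Pde6ccpfl1 plate 18 wells had 2 markers (2 to 5 counts) and 18 had 3 (3 to 9 counts), so the marker counts of wells on either side of the line overlapped.

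**Figure D2:**
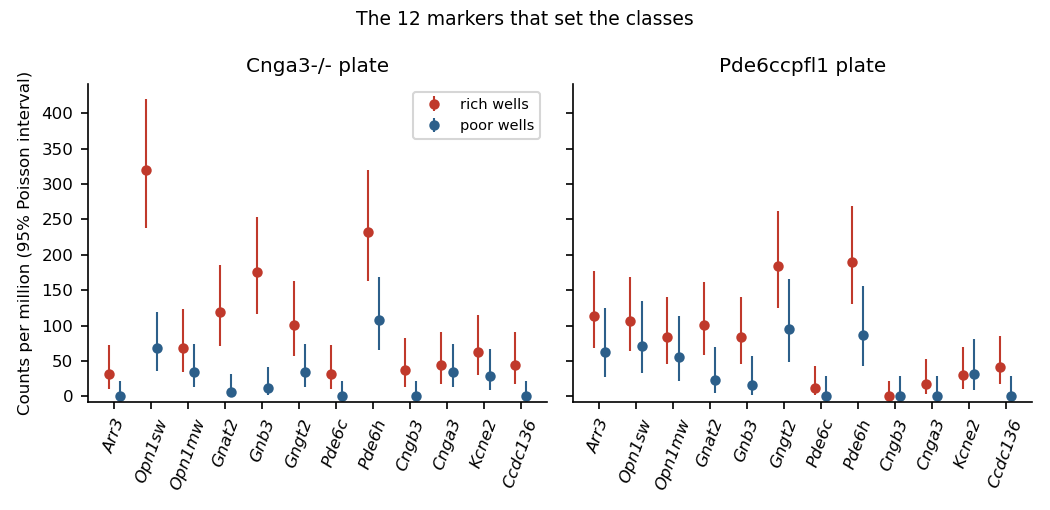
CPM of each of the 12 markers (vertical axis) summed over the rich wells and over the poor wells of each mutant plate; bars are 95% Poisson intervals that cover counting error only. The markers define the classes, so the gap between the colours is a description; it is widest for Opn1sw in the Cnga3-/- plate.

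Each set of 6 alternate markers was also used to class the wells, and the other 6 were then counted. Wells with at least 2 of Arr3, Opn1mw, Gnb3, Pde6c, Cngb3 and Kcne2 were paired on depth with the other wells. In the Cnga3-/- plate the remaining 6 markers had 70 counts against 38 over 15 pairs, a log2 ratio of 0.86 (95% counting interval 0.27 to 1.47). In the Pde6ccpfl1 plate they had 47 against 41 over 15 pairs, a log2 ratio of 0.21 (-0.43 to 0.85). With the roles exchanged the counts were 48 against 19 over 31 pairs in the Cnga3-/- plate, log2 1.32 (0.53 to 2.17), and 31 against 27 over 23 pairs in the Pde6ccpfl1 plate, log2 0.19 (-0.60 to 0.99). Markers that had not classed the well were thus higher with the class by more than counting error in the Cnga3-/- plate. In the Pde6ccpfl1 plate both intervals include 0, and the difference between the plates was not tested. When wells were thinned to 1400 counts and classed on the thinned counts, the mean of the 4 log2 ratios fell to -0.24, with 2 to 12 wells in the marker-positive classes. The log2 ratios were then -1.61 and -1.56 in the Cnga3-/- plate and 0.31 and 1.88 in the Pde6ccpfl1 plate. The marker-positive classes held 1 and 1 counts of the other markers in the Cnga3-/- plate, and 2 and 6 in the Pde6ccpfl1 plate. When wells were classed by at least 1 of 6 markers after thinning and their full counts compared in pairs, the mean was 1.06, with log2 ratios of 1.92 and 0.69 in the Cnga3-/- and 0.93 and 0.70 in the Pde6ccpfl1 plate.

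The plates share well positions, and this touches every comparison below. Of the positions in the table, 70 occur in both mutant plates and 61 were kept in both. For 552 of 601 genes with at least 50 counts in each plate (91.8%), the well with the most counts sat at the same position in both plates. Over all 3 plates this held for 367 of 418 genes (87.8%). That highest well held a median of 42.1% of a gene's counts in the Cnga3-/- plate and 37.2% in the Pde6ccpfl1 plate. For example, 1354 counts of Prdm11 lay in well B07 of the Cnga3-/- plate and 443 in well B07 of the Pde6ccpfl1 plate, while the median well of each class in either plate had 4 to 11.5 counts. Kif23, a mitotic kinesin, had 3751 counts in well F01 of the Cnga3-/- plate, a poor well, and 4709 in well F01 of the Pde6ccpfl1 plate, a rich well.

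Across the 61 shared positions, well totals in the 2 plates had a Spearman correlation of 0.82, and the numbers of cone markers one of 0.17. These are descriptions over wells that share a position and, with it, depth. For 48 of 61 wells of the Cnga3-/- plate, the best-correlated well of the Pde6ccpfl1 plate was the one at the same position. Of the 12 markers, 11 were counted in both plates at shared positions and 2 of them had their highest well at the same position, at much lower counts than the genes above. The same wells are thus high for the same genes in both plates, so agreement between plates is not independent where a position has the same class in both. Of the 61 positions, 11 were rich in both plates, 19 poor in both, 13 rich in the Cnga3-/- plate only and 18 rich in the Pde6ccpfl1 plate only. What makes the positions alike was not tested.

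**Figure D3:**
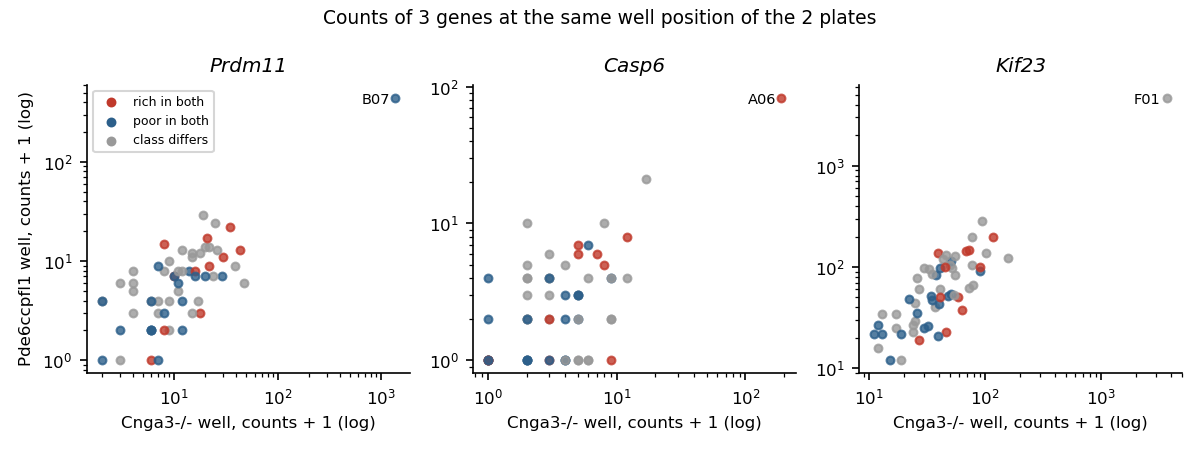
Counts plus 1 (log axes) of Prdm11, Casp6 and Kif23 at the 61 shared well positions, Cnga3-/- plate on the horizontal and Pde6ccpfl1 plate on the vertical axis, each point a position coloured by its class in the plates. In each gene 1 position (B07, A06 and F01) stands far above the rest in both plates.

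Outside the 12 markers, no gene passed the test for a difference between rich and poor wells. In edgeR's quasi-likelihood test on the 4 sums of paired wells, with the plate as a block and 1 residual degree of freedom, 0 of 1235 genes (0.00%) had a Benjamini-Hochberg adjusted p under 0.05, and the lowest adjusted p was 0.961. At an unadjusted p under 0.05 there were 23 genes (1.86%), 16 higher (1.30%) and 7 lower (0.567%) in rich wells. DESeq2 also called 0, with 47 genes at an unadjusted p under 0.05.

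By size alone, rich wells of both plates had 119 genes (9.64%) higher by 2-fold or more and 80 (6.48%) lower by as much. The log2 ratios of the 2 plates had the same sign for 565 of 1234 genes (45.8%), and their SD over genes was 1.51 in the Cnga3-/- and 1.40 in the Pde6ccpfl1 plate. Of the 119 higher genes, 108 had their top position (the position with the most counts over both plates) among those rich in both plates, and of the 80 lower genes 76 had it among those poor in both. Where the top position was rich in the Cnga3-/- and poor in the Pde6ccpfl1 plate (305 genes), the median log2 ratio was 1.39 in the first and -1.24 in the second. Where it was the other way round (369 genes), the medians were -1.42 and 1.06.

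When each gene's top position was left out of both plates, 723 genes remained testable, and rich wells of both plates had 6 (0.830%) higher by 2-fold or more and 1 (0.138%) lower by as much. The SD of the log2 ratios fell to 0.61 and 0.59. This alternative was chosen after the position pattern had been seen. Leaving out each gene's highest position shrinks large ratios by construction, and genes with few counts left drop out, so these falls are not a test. edgeR's test again called 0 genes (0.00%), with a lowest adjusted p of 0.171 and 33 genes (4.56%) at an unadjusted p under 0.05. With this step edgeR's common dispersion, its estimate of spread between the sums, fell from 0.374 to 0.0174. Standard errors and p-values without top positions are therefore not comparable with those of all paired wells.

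**Figure D4:**
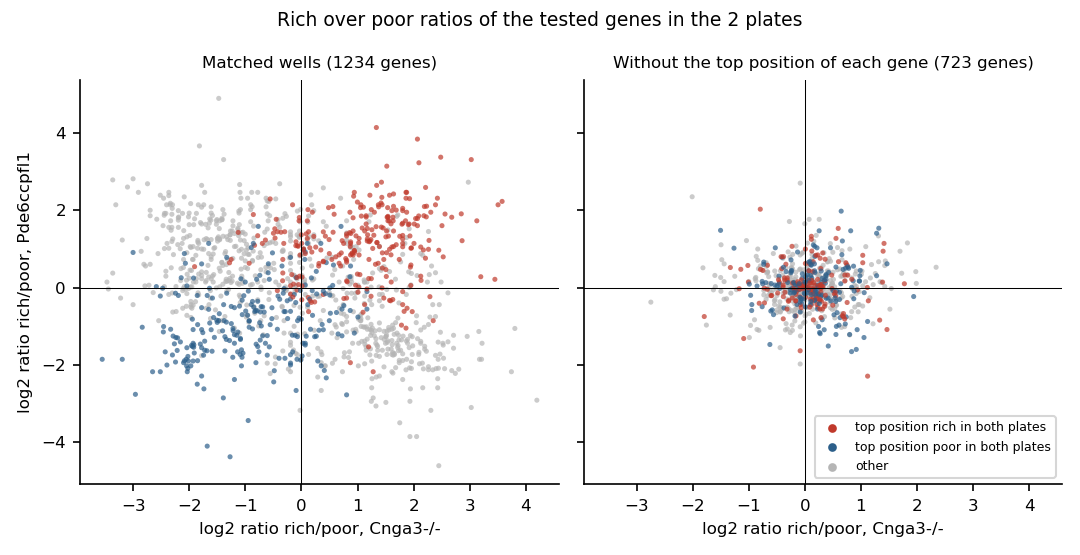
Log2 ratio of rich over poor paired wells in the Cnga3-/- plate (horizontal) and the Pde6ccpfl1 plate (vertical), 1 point per tested gene, with all wells (left) and without the top position of each gene (right). Red and blue points are genes whose top position is rich or poor in both plates; they fall in opposite corners on the left and around 0 on the right.

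The 12 genes that ranked highest by the smaller of their 2 ratios were Slc29a2, Agk, Fetub, Pdcd11, Caps2, Atp7b, Stxbp5, Mir9-3hg, Usp3, Slc16a5, Cep89 and Tdrkh. None passed the test: their fitted log2 changes were 2.11 to 3.10, with edgeR adjusted p of 0.961 for each. Slc29a2, a nucleoside transporter, had 28 counts in rich and 3 in poor paired wells of the Cnga3-/- plate and 18 and 2 in the Pde6ccpfl1 plate. Well H04, rich in both plates, held 18 and 11 of these counts. Atp7b, a copper-transporting ATPase, had 69 and 13 counts in the Cnga3-/- plate and 71 and 13 in the Pde6ccpfl1 plate. Well G08, rich in both, held 54 and 51 of them, and without that position the Atp7b counts were 15 against 13 and 20 against 13.

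Fetub, which encodes the protease inhibitor fetuin-B, had 96 and 15 counts in the Cnga3-/- plate and 47 and 5 in the Pde6ccpfl1 plate, of which 83 and 39 lay in well A06. Cep89, a centrosomal protein gene, had 74 and 17 counts and 67 and 15 counts, of which 48 and 45 lay in well H04. Without H04 Cep89 had 26 against 17 and 22 against 15 counts, a fitted log2 change of 0.63 (SE 0.31, edgeR adjusted p = 0.977). For all 12 genes the highest well was at the same position in both plates, and for 11 that position was rich in both. The exception was Agk, a mitochondrial lipid kinase, whose well D01 was rich in the Cnga3-/- plate and poor in the Pde6ccpfl1 plate. D01 was unpaired in the Pde6ccpfl1 plate, so its 10 Agk counts were not in the sums. In that plate Agk had 6 against 1 counts in paired wells, but 9 in rich and 11 in poor wells over all kept wells. The highest wells of the 12 genes lay at 6 positions. Without the top position, 6 of the 12 were still 1.5-fold or more higher in rich wells of both plates. Agk was among them, and leaving D01 out changed none of its counts in the Pde6ccpfl1 sums. The share over the 723 genes tested that way was 3.46%, but only 2 of the 12 were among those 723. The 12 were also chosen on these same wells, so the 6 cannot be set against that share. Without its top position Slc29a2 had 10 against 3 and 7 against 2 counts (log2 1.72 and 1.93). Stxbp5, the gene of the vesicle-fusion regulator tomosyn, had 16 against 4 and 12 against 5 (log2 1.99 and 1.41), and well C11 held 8 of its counts in each plate. Fetub had 13 against 15 and 8 against 5, and Usp3, a histone deubiquitinase gene, 12 against 8 and 10 against 10.

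Rich and poor wells can also be set side by side at the same position in different plates, using the 13 and 18 positions whose class differs and averaging the log2 ratios of the 2 directions so that the plate cancels. By this measure 11 of the 12 genes were above 0, with a median log2 ratio of 0.43. The counts behind it were small: Slc29a2 had 6 against 1 and 4 against 3, and Mir9-3hg, a microRNA host transcript, 4 against 1 and 4 against 2. These genes were chosen from the same wells, so the number above 0 supports nothing by itself.

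The 12 genes ranked lowest included Thbs1, Wdr27, Olfr107, Foxf1, Prdm11, Kcnb2, Vgll2, Cblb, Otop1, Mat2b and Drd2, with fitted log2 changes of -2.39 to -1.90 and edgeR adjusted p of 0.961 for each. Prdm11, a PR-domain zinc finger gene, had 353 counts in rich and 1626 in poor paired wells of the Cnga3-/- plate and 131 and 581 in the Pde6ccpfl1 plate. Without well B07 the Prdm11 counts were 353 against 272 and 131 against 138, and the fitted log2 change was 0.04 (SE 0.13, edgeR adjusted p = 0.999). Thbs1, the matrix protein thrombospondin 1, had 8 against 44 and 11 against 55 counts, of which 34 and 44 lay in the poor well D06, and 8 against 10 and 11 against 11 without it.

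Drd2, a dopamine receptor gene, had 12 against 38 and 8 against 50 counts, of which 32 and 34 lay in well B07. All 12 genes had their highest well at the same position in both plates, and at a position poor in both. At positions of differing class, 7 of the 11 that had enough counts were below 0, with a median log2 ratio of -0.10. Without the top position, 0 of these 12 were still 1.5-fold or more lower in both plates (1.94% of the 723 genes tested that way). Both sets of 12 were chosen on the same wells, and only 2 of each 12 had enough counts left for that test.

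Among the 723 genes tested without their top position, the lowest p-values belonged to genes that are named here after their values were seen. Map3k2, a kinase of the MAP kinase cascade, had 72 counts in rich and 28 in poor wells of the Cnga3-/- plate and 104 and 42 in the Pde6ccpfl1 plate, a fitted log2 change of 1.32 (SE 0.17, edgeR adjusted p = 0.171). At positions of differing class Map3k2 had a log2 ratio of 0.92, from 97 against 41 and 49 against 22 counts. Ncbp3, a cap-binding protein gene, had 44 against 93 and 29 against 78 counts without well H10, a log2 change of -1.19 (SE 0.18, edgeR adjusted p = 0.180), and -0.58 at positions of differing class. In all paired wells Map3k2 had 154 against 28 and 104 against 42 counts, and Ncbp3 93 against 93 and 73 against 78. The fitted log2 change there was 1.85 (SE 0.71, edgeR adjusted p = 0.961) for Map3k2. For Ncbp3 it was -0.07 (SE 0.65, edgeR adjusted p = 0.996). Well G06, the top position of Map3k2, held 82 counts in the Cnga3-/- plate, and these are among the 97 at positions of differing class. G06 was unpaired in the Pde6ccpfl1 plate, so leaving it out changed nothing there. In that plate the rich well C11, which was paired, held 62 of the 104 Map3k2 counts. The other paired rich wells together held no more than the 42 counts of the poor wells. The fitted change without C11 was not computed. Map3k2 thus had more counts in rich wells without its highest well in the Cnga3-/- plate, and not in the Pde6ccpfl1 plate. Ncbp3 had fewer only without H10, and neither gene passed the adjusted threshold.

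Malat1, a nuclear long noncoding RNA, had 123 against 66 and 77 against 51 counts without well C12, a log2 change of 0.69 (SE 0.15, edgeR adjusted p = 0.625). With C12 its counts were 123 against 97 and 77 against 51, a log2 change of 0.44 (SE 0.66, edgeR adjusted p = 0.996). C12 was unpaired in the Pde6ccpfl1 plate, so leaving it out changed nothing there. At positions of differing class the 2 directions for Malat1 were 1.23 and -0.83, so they did not agree in sign. Pde6g, the inhibitory subunit of the rod phosphodiesterase, had 32 against 8 counts in all paired wells of the Cnga3-/- plate and 23 against 14 in the Pde6ccpfl1 plate. The highest wells of Pde6g held 5 and 4 counts, so it did not rest on 1 well. In all paired wells its fitted log2 change was 1.31 (SE 0.81, edgeR adjusted p = 0.961). Without the top position Pde6g had a log2 change of 1.48 (SE 0.38, edgeR adjusted p = 0.625), and its log2 ratio at positions of differing class was 0.91, from 20 against 11 and 17 against 6 counts. Pde6g is a paralogue of the marker Pde6h, and how the counting treated reads shared by the pair is not given in the sources used here.

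Rod transcripts as a group did not follow the classes. The 12 rod markers had 113 counts in rich and 123 in poor paired wells of the Cnga3-/- plate, a log2 ratio of -0.32 (95% counting interval -0.70 to 0.06), and 87 and 84 in the Pde6ccpfl1 plate, 0.20 (-0.25 to 0.65). Gnat1, the rod transducin, had 7 against 24 counts in the Cnga3-/- plate and 4 against 5 in the Pde6ccpfl1 plate. In the Cnga3-/- plate well C04, a poor well, held 9 counts of Gnat1. Gnat1 thus had fewer counts in rich wells of 1 plate, while Pde6g had more in rich wells of both. The wider list of 17 rod genes gave log2 ratios of -0.17 and 0.04 in the Cnga3-/- and Pde6ccpfl1 plates.

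In all paired wells, other cone genes outside the 12 also gave no common direction. The list of 28 had 328 counts in rich and 315 in poor paired wells of the Cnga3-/- plate (log2 -0.14) and 411 and 308 in the Pde6ccpfl1 plate (log2 0.56). Without the top positions both log2 ratios were above 0, at 0.36 (95% counting interval 0.08 to 0.65) in the Cnga3-/- plate and 0.12 (-0.13 to 0.36) in the Pde6ccpfl1 plate. Olfactory receptors had 0.23 (0.08 to 0.37) in the Cnga3-/- plate in that setting. At positions of differing class the cone list had a log2 ratio of -0.02, the mean of -0.35 and 0.32. Of its 5 tested members, 0 were called and 1 was at least 1.5-fold higher in both plates, against 14.7% of all tested genes. That gene was Gnb5, a G-protein subunit of the complex that ends transducin signalling, with 25 against 4 and 23 against 13 counts, of which 17 and 15 lay in well H10. Guca1a, the guanylate cyclase activator of photoreceptors, had 11 against 1 and 7 against 6 counts and too few for the test. Abca4, the retinoid flippase of outer segments, had 102 against 170 and 259 against 158. Its well F12 held 87 and 95 counts, poor in the Cnga3-/- and rich in the Pde6ccpfl1 plate, and without it Abca4 had 102 against 83 and 164 against 158.

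Chrnb4, the nicotinic receptor subunit gene that names the wildtype reporter library, did not differ between the classes beyond its error. It had 25 counts in rich and 12 in poor paired wells of the Cnga3-/- plate and 11 and 10 in the Pde6ccpfl1 plate, a fitted log2 change of 0.58 (SE 0.71, edgeR adjusted p = 0.996).

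Gene lists were compared as summed counts, with TMM scaling. Against library totals, TMM moved every log2 ratio by 0.14 in either plate, downwards in the Cnga3-/- and upwards in the Pde6ccpfl1 plate, so that values closer to 0 than this have no stable sign. Of 21 lists, 2 were at least 1.5-fold apart in the same direction in both plates. The cell death and DNA damage list had 520 against 214 counts in the Cnga3-/- plate (log2 1.09) and 293 against 188 in the Pde6ccpfl1 plate (log2 0.79). It was carried by Casp6, an effector caspase, with 269 against 81 and 133 against 35 counts, and Parp1, the DNA damage sensor, with 226 against 107 and 126 against 119. Well A06, rich in both plates, held 188 and 82 counts of Casp6. Well C09 held 121 of Parp1 in the Cnga3-/- plate and 133 in the Pde6ccpfl1 plate, where it was poor and unpaired. Without the top positions the list had 205 against 207 and 198 against 187 counts, log2 -0.05 and 0.13.

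The sex-linked list of 6 genes was the other, lower in rich wells at 20 against 32 and 16 against 34 counts (log2 -0.87 and -0.94). Tsix, the antisense transcript of Xist, supplied 5 against 14 and 5 against 19, of which 7 and 10 lay in the poor well D06, and reads of Tsix and Xist cannot be told apart without strand. Without the top positions the list's intervals include 0, with log2 -0.46 and -0.62.

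Several lists moved in 1 plate or in opposite directions, with 1 gene at 1 position holding many of the counts. Photoreceptor transcription factors had a log2 ratio of 1.19 in the Cnga3-/- plate and -0.05 in the Pde6ccpfl1 plate. Rora, a nuclear receptor of photoreceptor development, made up 272 of 366 rich-well counts in the first, and well G05 alone held 160. Nuclear migration and motor genes had -1.96 and 0.23. Kif23 at well F01 held most of the poor-well counts in the Cnga3-/- plate, while F01 of the Pde6ccpfl1 plate was unpaired and so not in its sums. Actin and myosin genes had -1.52 and 1.43, through Myo6 at well D08, which was poor in the Cnga3-/- plate (384 counts) and rich in the Pde6ccpfl1 plate (366 counts). Without top positions these 3 lists had log2 ratios of 0.32 and -0.20, 0.15 and 0.06, and 0.21 and 0.20.

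In all paired wells, housekeeping and energy genes differed by less than 1.5-fold in each plate. Cytosolic ribosomal proteins had log2 ratios of -0.32 (-0.58 to -0.06) in the Cnga3-/- and 0.10 in the Pde6ccpfl1 plate, glycolysis and lactate genes 0.50 (0.02 to 0.99) and 0.40 (-0.07 to 0.87), and nuclear oxidative phosphorylation genes 0.01 and 0.02. Mitochondrially encoded genes had 88 against 62 counts in the Cnga3-/- plate (log2 0.31) and 67 against 75 in the Pde6ccpfl1 plate (log2 -0.02). Without top positions, oxidative phosphorylation genes had 0.44 (0.13 to 0.76) in the Cnga3-/- plate and 0.03 in the Pde6ccpfl1 plate, and mitochondrially encoded genes 0.83 (0.29 to 1.39) and -0.06. Atp5b, the catalytic subunit of ATP synthase, had 25 against 3 and 21 against 10 counts, and 13 against 3 and 21 against 10 without its top position. In the Pde6ccpfl1 plate that position added no Atp5b counts to the sums.

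**Figure D5:**
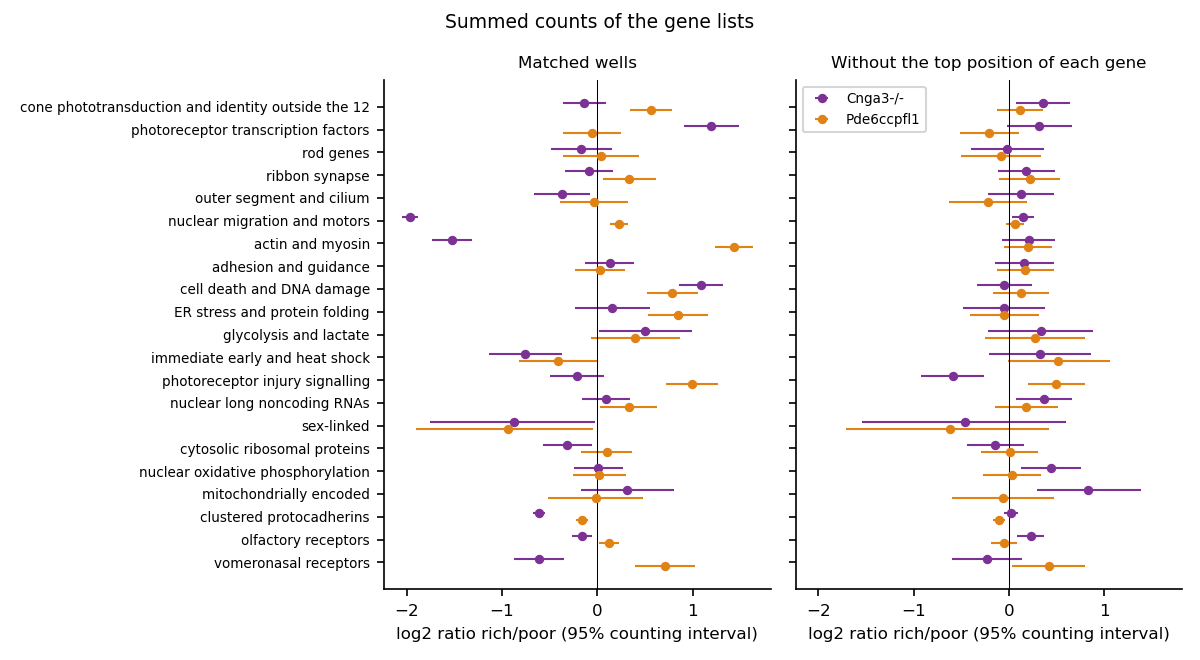
Log2 ratio of summed counts in rich over poor paired wells for 21 gene lists in the Cnga3-/- (purple) and Pde6ccpfl1 (orange) plates, with all paired wells (left) and without the top position of each gene (right); bars are 95% counting intervals. The widest departures on the left, such as actin and myosin at -1.52 and 1.43, lie at 0.21 and 0.20 on the right.

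Markers of other retinal cells were sparse in both classes. Horizontal cell markers had 56 against 27 counts in the Cnga3-/- plate and 55 against 27 in the Pde6ccpfl1 plate, mostly Onecut2 in well F08, and 22 against 25 and 25 against 27 without top positions. Muller glia markers had 13 against 14 and 5 against 5 counts, bipolar markers 20 against 29 and 15 against 19, and amacrine markers 5 against 12 and 7 against 6. Ganglion cell markers had 5 against 4 and 18 against 12, and microglia markers 7 against 3 and 2 against 6. Endothelial and pericyte markers had 30 against 18 and 13 against 21, astrocyte markers 8 against 8 and 20 against 10, and pigment epithelium markers 21 against 15 and 11 against 8. Haemoglobin genes had 1 count in all. Cell cycle genes had 5 against 17 and 7 against 12 counts, and 2 against 9 and 7 against 8 without top positions. Apart from horizontal markers, whose difference lay in 1 position, no set of non-cone markers was higher in the same class of both plates by more than its counting interval, and their part in the class differences was not tested.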

How the data were processed

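Per the labels, single GFP-positive cones were sorted into a plate per mouse line. The authors deposited raw counts per gene and well; featureCounts and the build GRCh38 are named in the submitters' processing notes, without versions. That build is human while the symbols are mouse, so no coordinates are given, and exon lengths came from GENCODE M21 (98.1% of symbols). The aligner and the use of molecular identifiers are not given in the sources used here, so intervals (95%) and floors (3 counts) cover counting error only. The wells, markers and lists were chosen with earlier results of these data known.

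Rich and poor wells were paired within a plate (optimal assignment on log2 totals, at most 0.5 apart) and summed, giving 4 sums. Genes outside the 12 markers with at least 50 counts over the sums that were also detected in 20% or more of the wells of 1 class in 1 plate were tested with edgeR 4.0.16 (quasi-likelihood, TMM, plate as block) in R 4.3.3; DESeq2 1.42.0 was an alternative. The test was also run on simulated data, and the outcome is not reported here. The lack of calls therefore does not show that rich and poor wells are alike. Only 2 pairs of sums exist, so no permutation over plates can reach 0.05, and p-values rest on 1 residual degree of freedom. Named genes were, for each direction, the 12 tested genes past the adjusted threshold or, since there were none, those at least 1.5-fold apart in both plates with the largest smaller ratio, without predicted genes. Some genes that this rule or the lists cover are not reported here. Further genes named after their values were seen are said to be so, or are members of the 21 lists with large ratios or many counts. Each well was sorted as 1 cell, and no doublet caller was run. Alternatives covered depth control, well and gene filters, the number of markers, scaling, the test and well positions.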

Additional observations from a re-analysis of the deposited data

Results flagged for a closer look

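Lists that were at least 1.5-fold apart in opposite directions in the Cnga3-/- and Pde6ccpfl1 plates are given here; the difference between the plates was not tested. For actin and myosin genes the log2 ratio of rich over poor wells was -1.52 in the Cnga3-/- and 1.43 in the Pde6ccpfl1 plate, a difference of -2.96. For vomeronasal receptors it was -0.61 and 0.71, a difference of -1.32, and without top positions -0.23 and 0.42.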

How the results depend on the processing

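edgeR called 0 genes under every alternative that gave a test except where 2 markers sufficed for a rich well. There it called 3 of 799 genes (Zfp790, Ank1 and Kif23), with a lowest edgeR adjusted p of 0.000121. Well F01 held 56.8% of the Kif23 counts in the kept wells of the Cnga3-/- plate and 52.3% in those of the Pde6ccpfl1 plate. The part of single positions in these calls was not tested. With the plate as replicate block left out, edgeR called 0, with 62 genes at an unadjusted p under 0.05.

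The number of genes at least 2-fold higher in both plates (119) was 26 with thinned wells, 55 and 58 with 2 or 4 markers as the limit, 75 with classes from thinned wells, 70 without the 5 deepest wells, 25 without rod-marker wells, 37 in odd and 36 in even wells, 307 and 21 with gene filters of 10 or 200 counts, and 6 without top positions. The number lower (80) was 195 with all wells, 27 with thinned wells, 149 with classes from thinned wells, 44 without the deepest wells, 26 without rod-marker wells, 39 in odd and 6 in even wells, 337 and 14 with the gene filters, and 1 without top positions. The number of genes tested changed too, so these counts are not shares. Against 1235 in the main setting it was 1735 with all wells, 362 with thinned wells, and 799 and 671 with 2 or 4 markers. Classes from thinned wells gave 1194, the set without the deepest wells 690, and the set without rod-marker wells 458. Odd wells gave 492, even wells 547, the gene filters 6169 and 225, and the set without top positions 723. In 1 plate alone the number higher was 383 in either plate and the number lower 325 to 384. Lists at least 1.5-fold apart (2) numbered 1 with thinned wells, 0 with classes from thinned wells, 1 without rod-marker wells, 1 in odd wells, and 6 to 8 in 1 plate alone.

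The mean log2 ratio of held-out markers (0.64) was -0.24 in wells thinned and classed on thinned counts, and 0.92 when the thinned wells kept the classes from all counts, a version added after the first had been seen. Over the other well settings it was 0.10 (without rod-marker wells) to 1.09 (without the 5 deepest wells), with 1.06 for classes from thinned wells, and 0.20 to 1.09 in 1 plate alone. The log2 ratio of genes per well was 0.45 before thinning.

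Of the named genes, these turned direction: Pdcd11 with 4 markers (-0.21); Slc16a5 with classes from thinned wells (-0.03); Thbs1 (1.07) and Olfr107 (0.41) with 2 markers; Olfr107 (0.15), Kcnb2 (0.91) and Mat2b (0.031) with classes from thinned wells; Prdm11 without the deepest wells (0.035), without rod-marker wells (0.058) and without its top position (0.042); and, at positions of differing class, Tdrkh (-0.48), Foxf1 (0.016), Kcnb2 (0.22), Vgll2 (0.33) and Mat2b (0.95). Chrnb4 turned with all wells (-0.55), 2 markers (-0.26), classes from thinned wells (-1.12), even wells (-0.59), depth strata (-0.15) and positions of differing class (-0.035). The cause was not tested. Many of these genes had no value in some settings, so a gene not listed did not always keep its direction. With Chrnb4 included, only 3 genes kept it in thinned wells and 7 in odd wells. Without top positions 4 kept it and 1 turned, and the same held in even wells. Without rod-marker wells 5 kept it and 1 turned, and with 4 markers 11 kept it and 1 turned. With 35 to 175 marker counts per sum of paired wells, a class rests on few counts per well.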

Other observations

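Clustered protocadherins, cell-surface proteins of neuronal identity, were among the most counted genes of both classes. They had 3574 against 4764 counts in rich and poor paired wells of the Cnga3-/- plate (log2 -0.61) and 3959 against 4893 in the Pde6ccpfl1 plate (log2 -0.16). Pcdhb17 had 1323 against 1512 and 1426 against 1942 counts, of which 482 and 509 lay in well B07. Without top positions the list had log2 ratios of 0.02 and -0.10. Olfactory receptors, 1092 genes, had -0.17 and 0.12, and 0.23 and -0.05 without top positions.

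Among the remaining lists, immediate early and heat shock genes had log2 ratios of -0.75 in the Cnga3-/- and -0.41 in the Pde6ccpfl1 plate, and turned to 0.33 and 0.52 without top positions, where both intervals include 0. Outer segment and cilium genes had -0.37 and -0.04, and 0.13 and -0.22 without top positions. Protein folding genes had 0.16 and 0.84, and -0.05 in both plates without them. Ribbon synapse genes had -0.08 and 0.33, and 0.19 and 0.22 without them. Adhesion and guidance genes had 0.13 and 0.03, and 0.16 and 0.17 without them. Glycolysis and lactate genes had 0.33 and 0.27 without them. Photoreceptor injury signalling had -0.22 and 0.99, and -0.59 and 0.50 without them. Nuclear long noncoding RNAs had 0.09 and 0.33, and 0.37 and 0.18 without them. Stat3, a transcription factor of injury signalling, had 173 against 162 and 265 against 138 counts, and 103 against 162 and 190 against 138 without its top position. Hsp90ab1, a cytosolic chaperone, had 33 against 104 and 41 against 88 counts, of which 80 and 59 lay in well D06, and 33 against 24 and 41 against 29 without it. Crb2, a polarity protein gene, had 26 against 6 and 17 against 6 counts, and 10 against 6 and 17 against 6 without well F05. F05 was unpaired in the Pde6ccpfl1 plate and its 19 Crb2 counts were not in the sums, so the counts there could not change.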
